A study of Mus musculus with 16 samples.

Results

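The genes described here are 32 genes of glycolysis and of the cellular response to low oxygen, followed in mouse bone marrow-derived macrophages by RNA sequencing. They form a list of named genes: 16 glycolytic enzymes, 2 transporters, 3 regulators of glycolytic flux, 4 genes of the hypoxia-inducible factor (HIF) machinery and 7 HIF-response genes. All 32 were found among the 54838 gene identifiers of the count files, and all 32 were among the 12612 genes that passed the filter on low counts. The series concerns histone deacetylase 9 and the kinase IKK in inflammation of the vessel wall. Its 16 libraries form 4 groups of 4. One group received DMSO, the solvent, and another received TNFα at 50 ng/ml for 24 h. The third received TMP195, an inhibitor of class IIa histone deacetylases, at 5 µM from 1 h before the same TNFα treatment (written TMP195+TNFα). The last group received TPCA-1, an inhibitor of IKK, at 500 nM from 1 h before the same TNFα treatment (TPCA-1+TNFα). Every group carried the Apoe-deficient genotype labelled B6.129P2-Apoetm1Unc/J on strain C57BL/6J, so no macrophages with intact Apoe were compared. The labels do not give the age of the animals, and they do not say whether cells given TNFα alone also received DMSO. Since no label ties the replicates to different mice or cultures, a p-value here reflects the scatter among 4 libraries, part of which may be technical.

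Glycolysis turns glucose into pyruvate through a chain of cytosolic enzymes, and lactate dehydrogenase then reduces pyruvate to lactate while restoring NAD+. HIF-1 is a transcription factor made of an oxygen-regulated α subunit, encoded by Hif1a, and a constant β subunit. Prolyl hydroxylases (Egln1, Egln3) mark the α subunit when oxygen is present, and the von Hippel-Lindau protein (Vhl) then directs its degradation, so messenger RNA levels of Hif1a do not report the level of the protein. HIF-1 binds a short core, ACGTG or GCGTG, near its target genes, and most enzymes of glycolysis as well as the glucose transporter Slc2a1 are known HIF targets. Macrophages exposed to inflammatory stimuli are known to raise glycolysis, and Hif1a is also known as a target of NF-κB, the pathway that IKK activates.

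The promoters of the members were read for that core because the enzymes and the HIF-response genes are set against each other below. RefSeq promoters (GRCm38.p6, 250 bases before to 50 bases after the start, 300 bases) were matched for 30 of the 32 members, with 43 promoters in all. Bnip3l and Ndrg1 were not matched. ACGTG on either strand was in 24 of the 43 promoters (55.8%), against 19.6% of all 32851 promoters of this length. GCGTG on either strand was also in 24 of them (55.8%), against 32.4% of all promoters. At least 1 of the 2 cores was in 35 of the 43 (81.4%, against 43.8%), which belong to 27 of the 30 matched genes, 14 of the 16 enzymes and 5 of the 5 matched HIF-response genes. The palindrome CACGTG, a site read by other factors that overlaps ACGTG, was in 5 promoters (11.6%, against 7.15%). The κB site read by NF-κB, searched on either strand, was in 9 (20.9%, against 20.7%). Alternative promoters of 1 gene can overlap, and base composition was not matched. The 4 promoters below, on GRCm38.p6 and written 5′ to 3′ on the strand of the gene, show the core in capitals in 3 genes that rose with TNFα and in Pdk1, which did not. They are Slc2a1 (chr4:119108495-119108794, plus strand), Bnip3 (chr7:138909457-138909756, minus strand), Ankrd37 (chr8:45999801-46000100, minus strand) and the first of 2 Pdk1 promoters (chr2:71872974-71873273, plus strand).
Slc2a1: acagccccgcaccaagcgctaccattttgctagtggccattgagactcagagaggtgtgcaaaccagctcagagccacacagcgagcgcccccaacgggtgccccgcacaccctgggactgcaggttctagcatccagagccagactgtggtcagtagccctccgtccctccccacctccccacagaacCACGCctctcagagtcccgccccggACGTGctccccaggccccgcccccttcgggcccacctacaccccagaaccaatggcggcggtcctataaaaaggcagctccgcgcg
Bnip3: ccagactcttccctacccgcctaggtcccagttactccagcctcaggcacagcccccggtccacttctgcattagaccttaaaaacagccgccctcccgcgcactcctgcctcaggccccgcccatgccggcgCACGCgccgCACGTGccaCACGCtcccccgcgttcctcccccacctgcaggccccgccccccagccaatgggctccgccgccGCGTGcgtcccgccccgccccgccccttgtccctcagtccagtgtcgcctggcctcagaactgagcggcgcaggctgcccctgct
Ankrd37: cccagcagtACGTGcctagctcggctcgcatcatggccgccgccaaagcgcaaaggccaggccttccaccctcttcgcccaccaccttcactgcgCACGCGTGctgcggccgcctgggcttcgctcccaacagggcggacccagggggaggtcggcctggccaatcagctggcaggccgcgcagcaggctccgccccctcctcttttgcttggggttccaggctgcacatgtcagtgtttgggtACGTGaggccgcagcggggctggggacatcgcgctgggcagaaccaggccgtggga
Pdk1: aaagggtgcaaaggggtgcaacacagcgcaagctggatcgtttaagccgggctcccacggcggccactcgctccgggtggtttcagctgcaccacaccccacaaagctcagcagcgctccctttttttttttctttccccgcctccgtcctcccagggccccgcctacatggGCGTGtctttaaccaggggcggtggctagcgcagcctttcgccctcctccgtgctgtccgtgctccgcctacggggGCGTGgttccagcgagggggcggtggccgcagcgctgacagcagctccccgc
A match of these letters is a description of the sequence, and binding was not measured here. By this reading Bnip3 held 5 cores and Ankrd37 held 4, counting both strands, while Slc2a1 and Pdk1 held 2 each. The CACGTG of Bnip3 counts as 2 of its 5, as it reads as ACGTG on both strands. These 4 promoters are examples: Tpi1 and Vhl, which also rose with TNFα, held 0 cores, and Pfkp, which did not rise, held 4. A link between the number of cores and the rise was not tested.

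Counted reads came to 7489066 to 31596572 per library. TPCA-1+TNFα replicate 2 was the shallowest library, and 44.0% of its reads were unmapped, against 4.0% to 7.1% in the other 15. Some of the results that it moves, but not all, are therefore given with and without it. Of 8 macrophage markers, all 8 passed the filter, and their summed level was 16304 to 25361 CPM (read counts scaled to a common library total) in DMSO, 17782 to 25964 in TNFα, 12535 to 17964 in TMP195+TNFα and 12898 to 21144 in TPCA-1+TNFα. Single macrophage markers moved within that sum: with TNFα against DMSO 1 of the 8 (Csf1r) rose and 3 (Cd68, Mertk and Fcgr1) fell, with TMP195+TNFα against TNFα 1 (Adgre1) fell, and with TPCA-1+TNFα against TNFα 4 (Csf1r, Itgam, Mertk and Fcgr1) fell. Fcgr1, an Fc receptor picked as an example after its values were seen, was at 250.7 ± 38.6 CPM in DMSO, 140.1 ± 26.7 in TNFα, 122 ± 43.9 in TMP195+TNFα and 25.5 ± 5.97 in TPCA-1+TNFα. Of 6 neutrophil markers, 0 passed, and Elane, Ly6g, Retnlg and Ngp were at 0 in every group. Of 6 lymphocyte markers, 1 (Ighm) passed, the summed level was 36.4 to 73.9 CPM in DMSO, 15.0 to 32.3 in TNFα, 7.31 to 11.6 in TMP195+TNFα and 27.2 to 62.1 in TPCA-1+TNFα, and Cd3e was at 0 in DMSO and TPCA-1+TNFα. Of 5 fibroblast and endothelial markers, 1 (Pecam1) passed, the summed level was 7.30 to 10.5, 3.81 to 7.51, 3.88 to 6.00 and 15.6 to 40.0 CPM in the same order, and Col3a1 was at 0. Summed markers of dendritic cells, mast cells and erythroid cells stayed under 2 CPM in every library. The part of these differences in the results below was not tested. In bulk RNA, fewer cells of a type and less RNA per cell cannot be told apart.

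TNFα raised 21 of the 32 members and lowered 0 by edgeR's quasi-likelihood test at an adjusted p of 0.05. Among all 12612 genes tested, 23.4% were called in this comparison, 10.9% higher and 12.4% lower, so that 46.8% of the calls were higher (36.7% when counts were scaled by library totals only). At an unadjusted p under 0.05, 23 members were higher and 3 lower, against 1994 and 2236 of all 12612 genes tested. DESeq2 gave 22 members higher and 0 lower, against 1642 and 1694 over all genes. With limma's voom with quality weights, 23 members were higher and 3 lower, against 2075 and 2332 over all genes. The median log2 fold change of the members was 0.47, against a median near 0 over all genes tested. Both transporters, 10 of 16 enzymes, 3 of 4 genes of the HIF machinery, 5 of 7 HIF-response genes and 1 of 3 flux regulators rose. The largest rises were in Adm, Egln3, Slc16a3, Slc2a1 and Ankrd37, all more than 2-fold, while the 10 called enzymes rose by 1.30-fold (Ldha) to 1.95-fold (Pfkl). In 24 of the 32 members the 4 TNFα libraries did not overlap the 4 DMSO libraries, against 27.2% of all genes tested. Libraries with the same replicate number deviated together in these 2 groups. With the number as a block, 23 members were higher and 3 lower, against 15.1% and 16.9% of all genes. The block added Gpi1 (log2 fold change 0.39 ± 0.14, adjusted p = 0.0376) and Pkm (log2 fold change 0.42 ± 0.11, adjusted p = 0.00924) as higher. It added Pfkm (log2 fold change -0.47 ± 0.16, adjusted p = 0.0359), Pdk1 (log2 fold change -0.28 ± 0.08, adjusted p = 0.0123) and Egln1 (log2 fold change -0.23 ± 0.07, adjusted p = 0.0271) as lower.

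**Figure D1:**
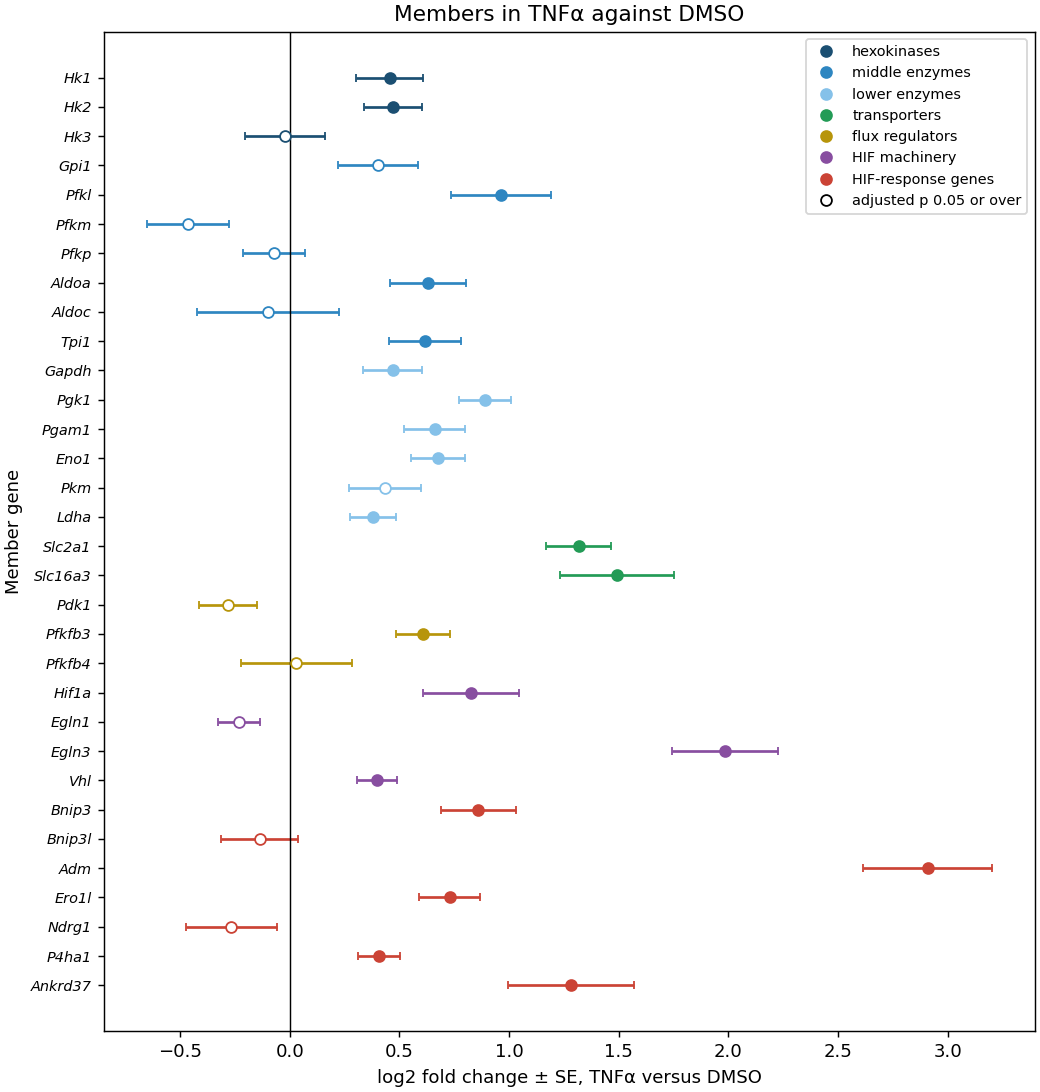
Log2 fold change of each of the 32 members between TNFα and DMSO (x axis) by gene and role group (y axis), with 1 SE as error bars, from 4 libraries against 4. Of the 32 points, 21 are higher at an adjusted p under 0.05, 0 are lower, and Adm at 2.91 lies farthest to the right.

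The transporters showed some of the most separate groups. Slc2a1 (GLUT1, the basal glucose carrier, ENSMUSG00000028645, chr4:119108711-119137983) stood at 62.7, 78.7, 61.5 and 85.6 CPM in DMSO replicates 1 to 4 and at 163, 166, 186 and 205 CPM in TNFα replicates 1 to 4. The lowest TNFα library was well above the highest DMSO library, and the fitted change was 2.49-fold (log2 fold change 1.32 ± 0.15, adjusted p = 4.13e-06). Slc16a3 (MCT4, which exports lactate) stood at 10.9, 12.5, 12.4 and 14.9 CPM with DMSO and at 28.7, 26.9, 41.2 and 45.7 CPM with TNFα. These libraries did not overlap either, and the fitted change was 2.81-fold (log2 fold change 1.49 ± 0.26, adjusted p = 0.000350).

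Among the hexokinases, which phosphorylate glucose on entry, Hk1 and Hk2 rose and Hk3 did not pass the test. Hk2, the inducible form (ENSMUSG00000000628, chr6:82725025-82774454), was at 32.4, 29.2, 35.5 and 32.9 CPM in DMSO and 40.1, 40.4, 43.6 and 56.2 CPM in TNFα, which do not overlap (log2 fold change 0.47 ± 0.13, adjusted p = 0.0141). Hk1, the form bound to mitochondria in most tissues, was at 42.03, 44.2, 49.3 and 45.4 CPM in DMSO and 56.03, 51.97, 70.5 and 69.5 CPM in TNFα, again without overlap (log2 fold change 0.46 ± 0.15, adjusted p = 0.0404). Hk3, the hexokinase typical of myeloid cells, was at 88.4 ± 14.7 and 87.03 ± 22.04 CPM (log2 fold change -0.02 ± 0.18, adjusted p = 0.953). The Hk1 call was near the threshold: it was lost without any 1 of the 4 DMSO libraries or without TNFα replicate 3 or 4, with a highest adjusted p of 0.119, and when counts were scaled by library totals only. That of Hk2 was lost without TNFα replicate 4 (adjusted p = 0.0536).

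In the middle of the pathway, 3 of 7 enzymes rose: Pfkl, Tpi1 and Aldoa. Pfkl, the liver-type subunit of phosphofructokinase, the committed step, was at 17.4, 20.1, 22.98 and 22.2 CPM in DMSO and 34.6, 31.7, 44.96 and 49.7 CPM in TNFα. Every TNFα library exceeded every DMSO library, and the change was the largest among the 16 enzymes (log2 fold change 0.96 ± 0.23, adjusted p = 0.00476). Tpi1 (triose phosphate isomerase) was at 224, 242, 255 and 263 CPM in DMSO and 335, 298, 415 and 461 CPM in TNFα (log2 fold change 0.62 ± 0.16, adjusted p = 0.0106). Aldoa, the main aldolase of most cells, was at 1833, 1900.0, 1694 and 2402 CPM in DMSO and 2619.6, 2496, 3010.4 and 3984 CPM in TNFα (log2 fold change 0.63 ± 0.17, adjusted p = 0.0130). For both genes the groups stood apart. The other phosphofructokinase subunits did not follow Pfkl: Pfkp, the platelet type, was at 59.03 ± 7.36 and 56.1 ± 7.56 CPM (log2 fold change -0.07 ± 0.14, adjusted p = 0.782), and Pfkm, the muscle type, was at 6.36 ± 0.802 and 4.60 ± 0.719 CPM (log2 fold change -0.46 ± 0.19, adjusted p = 0.0871). Gpi1, which converts glucose 6-phosphate to fructose 6-phosphate (log2 fold change 0.40 ± 0.18, adjusted p = 0.131), and the scarce aldolase Aldoc (log2 fold change -0.10 ± 0.32, adjusted p = 0.876) did not pass either.

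The lower part of the pathway, from glyceraldehyde 3-phosphate to lactate, rose in 5 of 6 enzymes. Pgk1, which makes the first ATP (ENSMUSG00000062070, chrX:106187100-106203699), was at 208, 217, 215 and 187 CPM in DMSO and 363, 312, 429 and 427 CPM in TNFα (log2 fold change 0.89 ± 0.12, adjusted p = 2.09e-05). Eno1 (enolase) was at 322, 349.9, 309 and 345 CPM with DMSO and 495, 458, 555 and 610.2 CPM with TNFα (log2 fold change 0.68 ± 0.12, adjusted p = 0.000500). Pgam1 (phosphoglycerate mutase) was at 111, 126, 107 and 126 CPM with DMSO and 164, 159, 205 and 215 CPM with TNFα (log2 fold change 0.66 ± 0.14, adjusted p = 0.00166). In each of these 3 genes all TNFα libraries lay above all DMSO libraries. Gapdh, often used as a reference transcript, rose as well, from 1050.4, 1097, 1107 and 1262 CPM to 1495, 1397, 1443 and 1916 CPM (log2 fold change 0.47 ± 0.14, adjusted p = 0.0176). The Gapdh call was lost without DMSO replicate 1 and without TNFα replicate 4 (adjusted p of up to 0.0628), although its groups did not overlap. Ldha, the lactate dehydrogenase subunit that favours lactate production, was at 506, 553, 558 and 462 CPM in DMSO and 663, 611, 737 and 696 CPM in TNFα, also without overlap (log2 fold change 0.38 ± 0.10, adjusted p = 0.0120). Pkm (pyruvate kinase) was at 967 ± 86.1 and 1307 ± 263 CPM and did not pass without the block (log2 fold change 0.43 ± 0.16, adjusted p = 0.0629). Several of these genes, Gapdh among them, have processed copies elsewhere in the genome, and only uniquely mapped reads were counted, so their levels are less certain than their fold changes between groups. Aldoa has a second identifier with the same symbol, which held 18 reads in all 16 libraries together.

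Per kilobase of transcript, Aldoa was the most abundant member at 1295 CPM per kb in DMSO and 2004 in TNFα, followed by Gapdh (795 and 1101), Pkm (398 and 537) and Ldha (294 and 383). Aldoc, Adm, Egln3 and Ankrd37 were the 4 lowest in DMSO, each under 2 CPM per kb. In TNFα, Adm reached 10.3 and Egln3 6.24 CPM per kb, while Aldoc remained at 1.02. The 16 enzymes together took 0.619% ± 0.0514 of all counted reads in DMSO, 0.857% ± 0.154 in TNFα, 0.939% ± 0.147 in TMP195+TNFα and 0.960% ± 0.144 in TPCA-1+TNFα (mean ± SD, n = 4 each). Transcript length was that of the longest principal transcript in GENCODE M21, and the isoforms in these cells were not resolved.

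Of the flux regulators, Pfkfb3 alone passed the test. Pfkfb3 makes fructose 2,6-bisphosphate, the activator of phosphofructokinase (ENSMUSG00000026773, chr2:11471433-11554077). Its level was 83.2, 96.9, 89.7 and 106 CPM in DMSO and 128, 136, 158 and 152 CPM in TNFα, without overlap (log2 fold change 0.61 ± 0.12, adjusted p = 0.00127). Pfkfb4, a related bifunctional enzyme, was at 16.8 ± 5.63 and 17.1 ± 5.25 CPM (log2 fold change 0.03 ± 0.25, adjusted p = 0.955). Pdk1, the kinase that holds pyruvate back from the mitochondrion, was at 50.7 ± 5.47 and 41.8 ± 3.88 CPM (log2 fold change -0.28 ± 0.13, adjusted p = 0.148), and passed as lower with the block given above.

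Within the HIF machinery, Hif1a, Egln3 and Vhl rose. Hif1a (ENSMUSG00000021109, chr12:73901375-73947530) was at 196, 189.7, 168 and 147 CPM in DMSO and 372, 297, 303 and 272 CPM in TNFα, with every TNFα library above the highest DMSO library (log2 fold change 0.83 ± 0.22, adjusted p = 0.00947). Egln3 (PHD3, an oxygen sensor that HIF itself is known to induce, ENSMUSG00000035105, chr12:54178981-54203860) was at 3.89, 5.08, 5.36 and 2.39 CPM in DMSO and 17.7, 14.5, 21.2 and 13.03 CPM in TNFα. Its groups were far apart, at 3.96-fold (log2 fold change 1.99 ± 0.24, adjusted p = 9.81e-06). Vhl was at 26.5, 23.9, 26.3 and 26.1 CPM in DMSO and 32.5, 34.4, 33.3 and 35.1 CPM in TNFα, a small change with little spread (log2 fold change 0.40 ± 0.09, adjusted p = 0.00373). Egln1 (PHD2, the main oxygen sensor) was at 30.9, 30.6, 32.9 and 28.1 CPM in DMSO and 27.1, 25.8, 26.8 and 24.7 CPM in TNFα, which do not overlap although the gene did not pass without the block (log2 fold change -0.23 ± 0.09, adjusted p = 0.0906). Taking Egln1 and Egln3 per kilobase, Egln3 made up 15.3% ± 3.74 of their sum in DMSO and 45.8% ± 4.44 in TNFα (mean ± SD, n = 4). A gene model on the same strand, Gm49321, overlaps the span of Hif1a, so reads shared between the 2 may not be counted for it.

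Of the HIF-response genes, Adm, Ero1l, Bnip3, P4ha1 and Ankrd37 rose. Adm, which encodes the vasodilator peptide adrenomedullin (ENSMUSG00000030790, chr7:110627661-110629820), was at 1.84, 2.46, 1.03 and 2.34 CPM in DMSO and 11.9, 14.5, 13.3 and 17.8 CPM in TNFα. It had the largest change of all 32 members, 7.51-fold (log2 fold change 2.91 ± 0.29, adjusted p = 1.38e-06), from 153 reads over the 4 DMSO libraries. Ero1l, an oxidase of the endoplasmic reticulum, was at 42.1, 49.3, 42.96 and 29.8 CPM in DMSO and 73.7, 72.9, 70.2 and 55.4 CPM in TNFα (log2 fold change 0.73 ± 0.14, adjusted p = 0.000694). Bnip3, a mitophagy receptor, was at 24.1, 30.7, 24.3 and 24.5 CPM in DMSO and 47.00, 45.1, 48.2 and 47.7 CPM in TNFα (log2 fold change 0.86 ± 0.17, adjusted p = 0.00110). All 3 genes separated the groups completely. P4ha1, a collagen prolyl hydroxylase, rose from 102 ± 10.2 to 136 ± 8.42 CPM (log2 fold change 0.41 ± 0.09, adjusted p = 0.00378), and Ankrd37, a small ankyrin-repeat protein, from 1.82 ± 0.390 to 4.44 ± 0.976 CPM (log2 fold change 1.28 ± 0.29, adjusted p = 0.00311). The other two did not pass: Bnip3l, a relative of Bnip3, was at 55.3 ± 6.11 and 50.3 ± 6.27 CPM (log2 fold change -0.14 ± 0.18, adjusted p = 0.651), and Ndrg1, a stress-response gene, was at 630.2 ± 165 and 524 ± 112 CPM (log2 fold change -0.27 ± 0.21, adjusted p = 0.422).

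**Figure D2:**
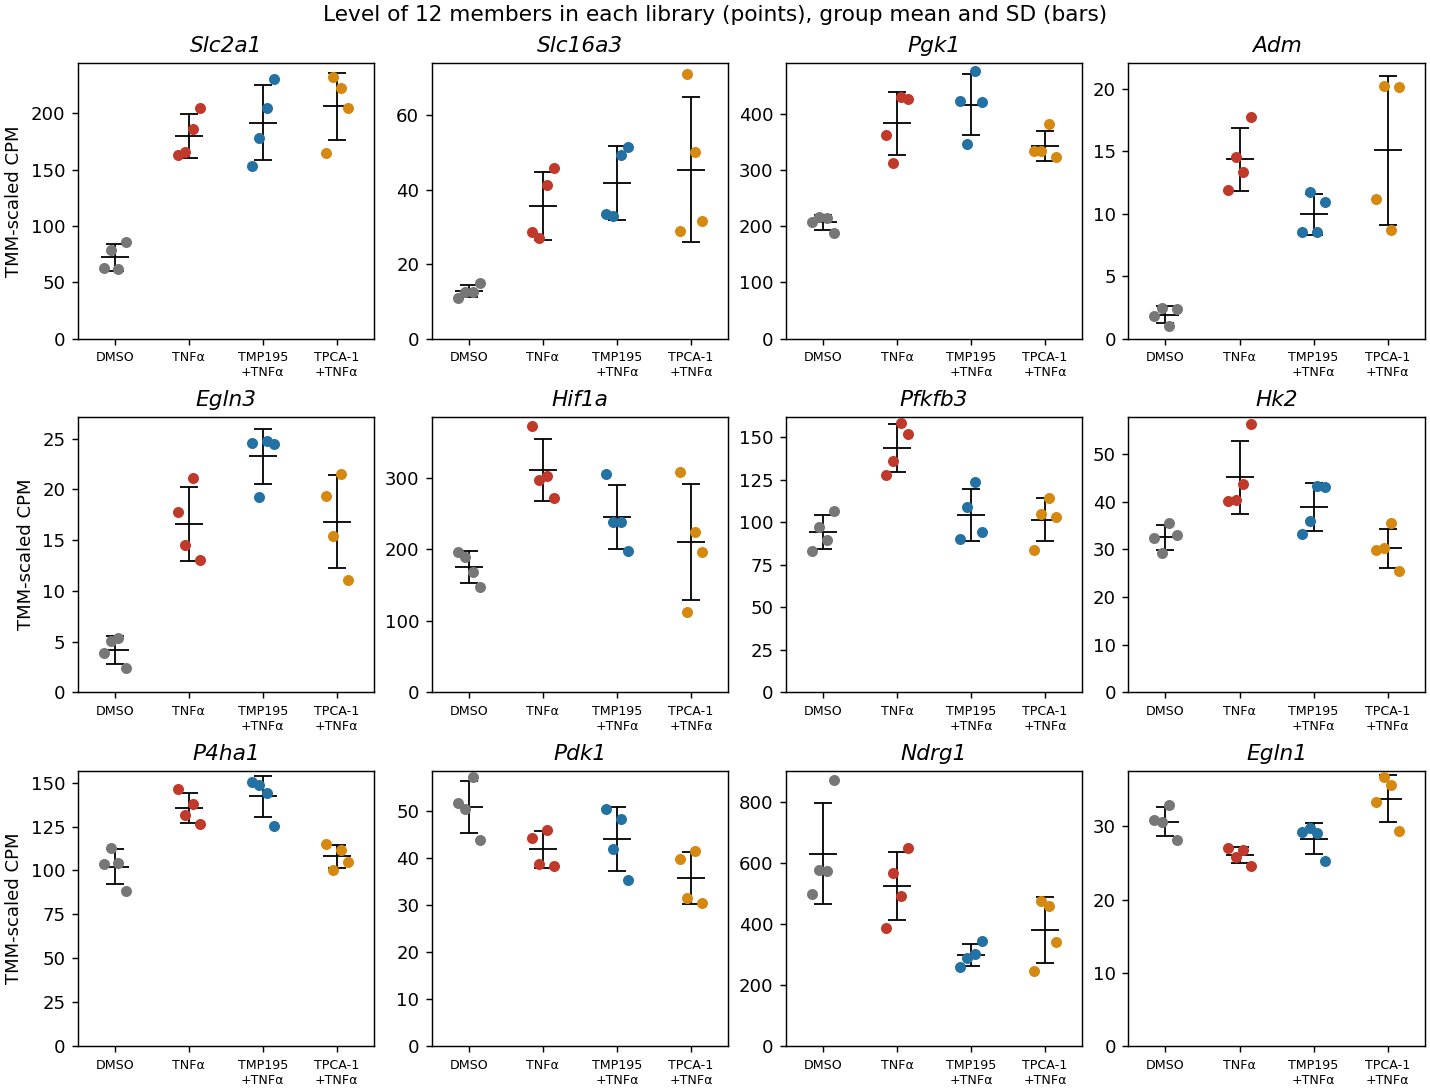
Level of selected members in every library (y axis, TMM-scaled CPM on a linear scale from 0) in the 4 groups (x axis), with 1 point per library, replicates 1 to 4 from left to right, and bars for the group mean and SD. Slc2a1, Egln3 and Adm lie apart from DMSO in all 3 groups given TNFα, whereas Pfkfb3 in both inhibitor groups lies near its DMSO level.

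Set against each other, the HIF-response genes had a median log2 fold change of 0.73 with TNFα and the enzymes one of 0.46. The HIF-response genes ranged from -0.27 to 2.91 and the enzymes from -0.46 to 0.96. In each library, the median log2 level of a role group relative to the DMSO mean gave 0.33, 0.26, 0.55 and 0.77 for the enzymes and 0.87, 0.81, 0.80 and 0.46 for the HIF-response genes in TNFα replicates 1 to 4. The same values were -0.09, -0.03, 0.08 and 0.10 and 0.01, 0.25, 0.03 and -0.21 in DMSO. All TNFα libraries were above all DMSO libraries on both medians. Within TNFα the order differed between the role groups: replicate 4 had the highest median of the enzymes and the lowest of the HIF-response genes. The same held for replicate 4 among the DMSO and the TMP195+TNFα libraries. No test was made of the difference between role groups.

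**Figure D3:**
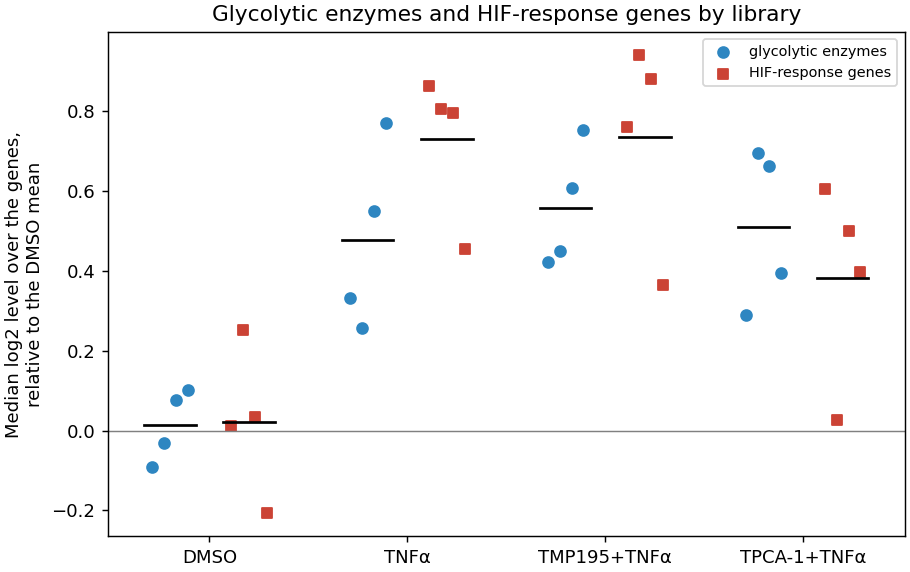
Median log2 level of the 16 enzymes and the 7 HIF-response genes relative to the mean of the DMSO libraries (y axis) in each library, by group (x axis), with replicates 1 to 4 from left to right. The TNFα libraries lie above the DMSO libraries for both role groups, and in TPCA-1+TNFα replicate 2 the HIF-response median is 0.03 while the enzyme median is 0.70.

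Neighbouring pathways were read from 4 further lists, to be set beside the 10.9% of all genes tested called higher with TNFα and the 12.4% called lower. Of 9 pentose phosphate genes, which branch from glycolysis to make NADPH and ribose, 3 rose with TNFα and 6 did not pass. Those that rose were Pgd (log2 fold change 1.04 ± 0.14, adjusted p = 1.91e-05), Taldo1 (log2 fold change 0.80 ± 0.12, adjusted p = 7.01e-05) and G6pdx (log2 fold change 0.53 ± 0.14, adjusted p = 0.00930). Of 26 tested genes among 33 others of glycolysis and pyruvate metabolism, 3 rose and 3 fell. The 3 that rose were Pcx, pyruvate carboxylase, from 1.64 ± 0.564 to 10.6 ± 1.95 CPM (log2 fold change 2.69 ± 0.32, adjusted p = 8.64e-06), Slc2a6, a lysosomal glucose carrier of myeloid cells, from 11.9 ± 4.94 to 46.7 ± 14.9 CPM (log2 fold change 1.97 ± 0.28, adjusted p = 4.71e-05), and Pgm1, a phosphoglucomutase (log2 fold change 0.82 ± 0.13, adjusted p = 0.000142). Of 15 further genes of the HIF machinery, 2 rose and 1 fell: Arnt2, a HIF partner (log2 fold change 2.14 ± 0.44, adjusted p = 0.00146), and Siah2, a ubiquitin ligase (log2 fold change 0.58 ± 0.18, adjusted p = 0.0238), rose, whereas Epas1, which encodes HIF-2α, fell (log2 fold change -1.996 ± 0.46, adjusted p = 0.00350). Both Arnt2 and Epas1 were low in DMSO and TNFα, at 0.312 ± 0.184 and 1.38 ± 0.177 CPM and at 1.56 ± 0.583 and 0.376 ± 0.180 CPM. Of 27 tested genes among 30 other HIF targets, 9 rose and 5 fell. Those of smallest adjusted p among the risers were Hmox1, heme oxygenase, from 1265 ± 382 to 3984 ± 485 CPM (log2 fold change 1.65 ± 0.19, adjusted p = 6.03e-06), the glycogen enzyme Gbe1 (log2 fold change 1.57 ± 0.23, adjusted p = 6.55e-05) and the adenylate kinase Ak4 (log2 fold change 1.56 ± 0.24, adjusted p = 0.000116). The 5 targets called lower, which the naming rule does not cover and which were picked once their values were known, were Tfrc, the transferrin receptor (log2 fold change -1.11 ± 0.20, adjusted p = 0.000370), Rora, Mxi1, Car9 and Vegfa, and the 3 of glycolysis and pyruvate metabolism were Slc2a3, Galm and Pdk2. The largest fitted rise was that of Nos2, the inducible nitric oxide synthase, which was near the level of 3 reads in DMSO (0.0869 ± 0.0261 CPM) and at 1.28 ± 0.531 CPM in TNFα, so its fold is imprecise.

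When TMP195 with TNFα was set against TNFα alone, 1 member rose (Pfkp), 2 fell (Pfkfb3 and Ndrg1) and 29 did not pass. Among all genes tested, 5.95% were called, 2.95% higher and 3% lower, so that 49.6% of the calls were higher (63.6% when counts were scaled by library totals only). At an unadjusted p under 0.05, 3 were higher and 3 lower, against 1258 and 1110 of all 12612 genes tested, which is a similar share. The median log2 fold change of the members was 0.07, against 0.02 over all genes tested. Pfkp is an enzyme of the committed step, Pfkfb3 makes its activator, and Ndrg1 is a HIF-response gene. In 6 of the 32 members the groups did not overlap, against 15% of all genes. This comparison and the one for TPCA-1 both use the 4 TNFα libraries, which also enter TNFα against DMSO, so they are not independent.

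Pfkp (ENSMUSG00000021196, chr13:6579768-6648777) was at 46.4, 54.7, 64.2 and 59.3 CPM in TNFα and 73.3, 77.8, 85.3 and 97.6 CPM in TMP195+TNFα, where every library was above the highest TNFα library (log2 fold change 0.57 ± 0.14, adjusted p = 0.0224). Ndrg1 (ENSMUSG00000005125, chr15:66929318-66969640) was at 387, 567, 492 and 651 CPM in TNFα and 258, 289.8, 303 and 345 CPM in TMP195+TNFα, all below the lowest TNFα library (log2 fold change -0.81 ± 0.21, adjusted p = 0.0290). Pfkfb3 was at 90.3, 109, 123 and 94.02 CPM with TMP195, below its TNFα libraries (log2 fold change -0.46 ± 0.12, adjusted p = 0.0339) and in the range of its DMSO libraries but for replicates 2 and 3. Vhl, next by p-value, was at 29.7, 28.1, 28.5 and 30.04 CPM, below every TNFα library, but did not pass (log2 fold change -0.22 ± 0.09, adjusted p = 0.196). With limma's voom it was lower (log2 fold change -0.22 ± 0.07, adjusted p = 0.0409). Each of the 3 calls rested on single libraries: Pfkp was lost without TNFα replicate 1 or 2 or TMP195+TNFα replicate 3 or 4 (adjusted p up to 0.082), Ndrg1 without TMP195+TNFα replicate 1, 2 or 3 or TNFα replicate 2 or 4 (up to 0.0911), and Pfkfb3 without any of TMP195+TNFα replicates 1, 2 and 4 or TNFα replicates 2 to 4 (up to 0.0979) and when scaled by library totals only. Hence 0 or 1 member was higher and 0 to 2 were lower when 1 library was left out. With the replicate number as a block, 2 were higher and 3 lower, against 6.91% and 6.56% of all genes. The block added Egln3 (log2 fold change 0.52 ± 0.16, adjusted p = 0.0385) as higher and Adm (log2 fold change -0.54 ± 0.16, adjusted p = 0.0302) as lower.

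No other enzyme or HIF-response gene passed with TMP195 in the fit without the block. Hif1a was at 305, 238, 238.6 and 197 CPM (log2 fold change -0.35 ± 0.22, adjusted p = 0.447), Slc2a1 at 153, 178, 205 and 231 CPM (log2 fold change 0.09 ± 0.14, adjusted p = 0.838), and Gapdh at 1459.5, 1549.6, 1758 and 1905 CPM (log2 fold change 0.09 ± 0.14, adjusted p = 0.823). The libraries of both groups overlapped for all 3 genes. Ldha was at 722, 734, 762 and 647 CPM (log2 fold change 0.08 ± 0.10, adjusted p = 0.784). Counts in the further lists stand beside the 2.95% of all genes tested called higher here and the 3% called lower. Of the further lists, 3 of 26 genes of glycolysis and pyruvate metabolism rose and 23 did not pass, with the smallest adjusted p in Pdp1, a pyruvate dehydrogenase phosphatase (log2 fold change 0.58 ± 0.13, adjusted p = 0.0150), and none of the 9 pentose phosphate genes passed in this edgeR fit. Among the HIF machinery, 2 of 15 fell and 13 did not pass: Egln2, the third prolyl hydroxylase (log2 fold change -0.79 ± 0.18, adjusted p = 0.0132), and Cited2, a competitor of HIF for its coactivator (log2 fold change -0.39 ± 0.10, adjusted p = 0.0243). Of 27 other HIF targets, 4 rose and 23 did not pass, among them Vegfa, the endothelial growth factor, from 10.4 ± 1.01 to 28.2 ± 2.37 CPM (log2 fold change 1.44 ± 0.13, adjusted p = 3.34e-05), Bhlhe40 (log2 fold change 1.11 ± 0.18, adjusted p = 0.00166) and Mxi1 (log2 fold change 0.91 ± 0.20, adjusted p = 0.0132), both transcriptional repressors. Vegfa was at 13.7 ± 2.19 CPM in DMSO.

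TPCA-1 with TNFα, set against TNFα alone, raised 1 member, Egln1, and lowered 3, Hk2, Pfkfb3 and P4ha1. Among all genes tested, 19.4% were called, 9.67% higher and 9.72% lower. The median log2 fold change of the members was 0.02, against 0.02 over all genes, and in 4 members the groups did not overlap, against 18.5% of all genes. By role group, the median was 0.08 for the enzymes (12 of 16 positive) and -0.26 for the HIF-response genes (2 of 7 positive). Over all genes, 6592 of 12612 were positive. Without the shallow TPCA-1+TNFα replicate 2, the HIF-response median was -0.13, that of Bnip3. The 2 middle enzyme values were then 0.01 (Eno1) and 0.02 (Hk3). The difference between role groups was not tested. Among the 16 enzymes, the inducible hexokinase passed and the other 15 did not.

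Hk2 was at 29.8, 30.3, 35.4 and 25.3 CPM in TPCA-1+TNFα, below every TNFα library and with all but replicate 4 inside the DMSO range (log2 fold change -0.58 ± 0.13, adjusted p = 0.00550). Pfkfb3 was at 83.8, 105.0, 114 and 103 CPM, likewise below every TNFα library (log2 fold change -0.50 ± 0.12, adjusted p = 0.00854). P4ha1 (ENSMUSG00000019916, chr10:59323296-59373304) was at 146, 132, 138 and 127 CPM in TNFα and 115, 100.4, 112 and 105.0 CPM in TPCA-1+TNFα, without overlap (log2 fold change -0.33 ± 0.09, adjusted p = 0.0217). Egln1 was at 33.4, 36.8, 35.6 and 29.4 CPM, above every TNFα library (log2 fold change 0.37 ± 0.10, adjusted p = 0.0113). Without the shallow TPCA-1+TNFα replicate 2, Hk2 (log2 fold change -0.59 ± 0.15, adjusted p = 0.0116), Pfkfb3 (log2 fold change -0.52 ± 0.13, adjusted p = 0.0133) and P4ha1 (log2 fold change -0.30 ± 0.10, adjusted p = 0.0472) kept their calls, and so did Egln1 (log2 fold change 0.32 ± 0.09, adjusted p = 0.0295). The P4ha1 call was lost without TNFα replicate 1 or 3 or TPCA-1+TNFα replicate 4 (adjusted p up to 0.0723), and it and the Egln1 call were lost without a filter on low counts and with only the 2 groups in the fit. Without TPCA-1+TNFα replicate 1, 4 members were higher and 4 lower, the added ones being Gpi1 (log2 fold change 0.54 ± 0.17, adjusted p = 0.0262), Pfkm (log2 fold change 0.53 ± 0.18, adjusted p = 0.0445), Pfkp (log2 fold change 0.49 ± 0.14, adjusted p = 0.0169) and Hif1a (log2 fold change -0.82 ± 0.20, adjusted p = 0.00864), and without TNFα replicate 4, 2 were higher.

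Hif1a was at 308, 111, 224 and 196 CPM in TPCA-1+TNFα and did not pass (log2 fold change -0.56 ± 0.22, adjusted p = 0.0784). Its value in replicate 2 was the lowest of all 16 libraries, and the change remained short of the threshold without that library (log2 fold change -0.36 ± 0.17, adjusted p = 0.171). It was lower in limma's voom (adjusted p = 0.0193) and without a filter on low counts, so the call depends on the method. Slc2a1 was at 165, 232, 222 and 205 CPM (log2 fold change 0.20 ± 0.15, adjusted p = 0.360), Slc16a3 at 28.9, 71.1, 50.2 and 31.7 CPM (log2 fold change 0.34 ± 0.25, adjusted p = 0.370) and Gapdh at 1464, 1825, 1761 and 1231 CPM (log2 fold change 0.01 ± 0.14, adjusted p = 0.980). The 95% intervals of these log2 differences ran from -0.11 to 0.50, from -0.20 to 0.87 and from -0.28 to 0.29, and replicate 2 was the highest TPCA-1+TNFα library for each gene. Without that library Slc16a3 (log2 fold change 0.04 ± 0.23, adjusted p = 0.926), Slc2a1 (log2 fold change 0.13 ± 0.15, adjusted p = 0.636) and Gapdh (log2 fold change -0.08 ± 0.14, adjusted p = 0.752) did not pass either. Ldha was at 586, 677, 666 and 518 CPM (log2 fold change -0.14 ± 0.10, adjusted p = 0.345), and Vhl at 32.1, 40.3, 31.00 and 34.8 CPM (log2 fold change 0.03 ± 0.09, adjusted p = 0.869).

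Outside the members, 13 of 27 other HIF targets rose with TPCA-1+TNFα against TNFα and 5 fell. Over all genes tested, 9.67% were called higher and 9.72% lower in this comparison. The rises of smallest adjusted p were those of Bhlhe40, from 3.98 ± 0.662 to 14.9 ± 3.51 CPM (log2 fold change 1.90 ± 0.18, adjusted p = 1.14e-06), Mt1, a metallothionein, from 186 ± 44.8 to 882 ± 436 CPM (log2 fold change 2.25 ± 0.31, adjusted p = 6.30e-05), and Angptl4, a lipase inhibitor, from 0.219 ± 0.317 to 4.02 ± 1.48 CPM (log2 fold change 4.14 ± 0.61, adjusted p = 0.000120). The Angptl4 level in TNFα was near that of 3 reads, so its fold change is imprecise. The 5 targets called lower, again picked with their values known, were Plod2, a collagen lysyl hydroxylase (log2 fold change -1.68 ± 0.26, adjusted p = 0.000212), Gbe1, Lox, Tfrc and Nos2, the last from 1.28 ± 0.531 to 0.0743 ± 0.149 CPM, which is near 0. Of 26 further glycolysis and pyruvate genes, 4 rose and 2 fell, among them Pgm2 (log2 fold change 0.51 ± 0.08, adjusted p = 0.000399), the neuronal-type enolase Eno2 (log2 fold change 0.86 ± 0.18, adjusted p = 0.00260) and Pdk2 (log2 fold change 1.06 ± 0.28, adjusted p = 0.0124), which rose, while Pdk3 and Slc2a6 fell. Of 9 pentose phosphate genes, 1 rose, Shpk (log2 fold change 0.87 ± 0.27, adjusted p = 0.0291), and 2 fell, Rpe (log2 fold change -0.82 ± 0.20, adjusted p = 0.00903) and Rpia (log2 fold change -0.41 ± 0.13, adjusted p = 0.0329). Of 15 genes of the HIF machinery, 1 fell, Cited2, from 162 ± 15.1 to 87.9 ± 9.70 CPM (log2 fold change -0.88 ± 0.10, adjusted p = 7.23e-06).

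**Figure D4:**
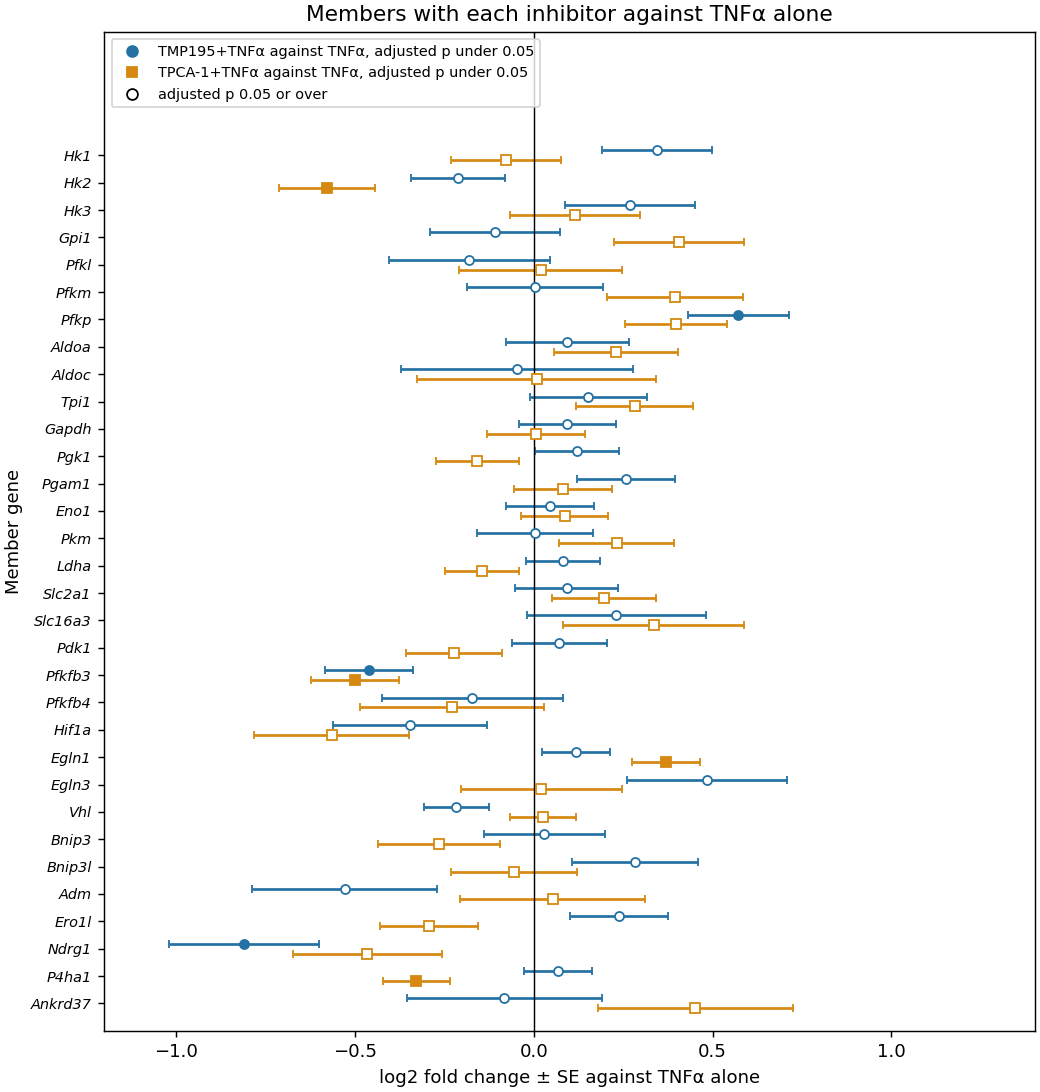
Log2 fold change against TNFα alone for each member with TMP195+TNFα and with TPCA-1+TNFα (x axis), by gene (y axis), with 1 SE as error bars and filled points for an adjusted p under 0.05. Pfkfb3 is lower with both inhibitors, at -0.46 and -0.50, and both comparisons share the same 4 TNFα libraries.

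The 2 inhibitor groups were also compared with each other directly, at their single doses of 5 µM and 500 nM, which differ, so the values describe these treatments and not the compounds at matched doses. Ero1l and P4ha1 were higher with TMP195 and Gpi1 was lower, and 29 members did not pass. Among all genes tested, 25.7% were called, 13.1% higher and 12.6% lower. In 3 members the groups did not overlap, against 23.6% of all genes. P4ha1 was at 150.4, 149, 144 and 125 CPM with TMP195 and at the levels given above with TPCA-1, without overlap (log2 fold change 0.40 ± 0.09, adjusted p = 0.00508). Ero1l was at 84.5, 88.4, 74.4 and 73.8 CPM with TMP195 and 61.5, 50.1, 57.1 and 53.2 CPM with TPCA-1, also without overlap (log2 fold change 0.53 ± 0.14, adjusted p = 0.00849). Gpi1 was at 356, 338, 408 and 489.5 CPM with TMP195 and 387, 739, 555 and 591 CPM with TPCA-1 (log2 fold change -0.51 ± 0.18, adjusted p = 0.0473). The Gpi1 groups overlapped, the highest value was in the shallow TPCA-1+TNFα replicate 2, and the call was lost without that library (adjusted p = 0.165), as well as without TPCA-1+TNFα replicate 3 or 4 or TMP195+TNFα replicate 1, 2 or 3. Hk1, next by p-value, was at 66.9, 69.9, 86.9 and 91.3 CPM with TMP195 and 43.8, 75.5, 62.4 and 54.2 CPM with TPCA-1 (log2 fold change 0.42 ± 0.15, adjusted p = 0.0528), and without TPCA-1+TNFα replicate 2 it passed (log2 fold change 0.56 ± 0.15, adjusted p = 0.0118). With 1 library left out at a time, the counts ran from 2 to 5 higher (5 without TMP195+TNFα replicate 4, 4 without TMP195+TNFα replicate 1) and from 0 to 3 lower (3 without TPCA-1+TNFα replicate 1, 2 without TPCA-1+TNFα replicate 3 or TMP195+TNFα replicate 4, and 0 without TMP195+TNFα replicate 1, 2 or 3 or TPCA-1+TNFα replicate 2). Pfkfb3 did not differ detectably between the inhibitors (log2 fold change 0.04 ± 0.12, adjusted p = 0.837), with a 95% interval of the log2 difference from -0.22 to 0.30.

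Against DMSO, TMP195+TNFα had 18 members higher and 1 lower, and TPCA-1+TNFα had 17 higher and 2 lower. Among all genes tested, 27.5% were called for TMP195+TNFα (13.6% higher, 13.9% lower) and 30.3% for TPCA-1+TNFα (14.8% higher, 15.5% lower). The groups did not overlap in 22 and 16 members, against 30.4% and 26.2% of all genes. The member median was 0.49 and 0.43, against a median near 0 over all genes for both. Of the 16 enzymes, 10 were higher with TMP195+TNFα and 9 with TPCA-1+TNFα, while the other 6 and 7 did not pass, with medians of 0.53 and 0.57. Of the 7 HIF-response genes, 5 and 4 were higher and 1 was lower in each, Ndrg1, with medians of 0.89 and 0.44. By library, the median log2 level relative to the DMSO mean was 0.42, 0.45, 0.61 and 0.75 for the enzymes and 0.76, 0.94, 0.88 and 0.37 for the HIF-response genes in TMP195+TNFα replicates 1 to 4. It was 0.29, 0.70, 0.66 and 0.40 for the enzymes and 0.61, 0.03, 0.50 and 0.40 for the HIF-response genes in TPCA-1+TNFα replicates 1 to 4. The HIF-response median of the shallow TPCA-1+TNFα replicate 2 lay within the DMSO range, while its enzyme median was the highest of its group. Without that library, the median log2 fold change of the HIF-response genes against DMSO was 0.48, that of Ero1l. The 2 middle values of the enzymes were then 0.39 (Gapdh) and 0.57 (Pkm). The HIF-response median lay between these values, so without that library the medians of the role groups were close to each other. These 2 comparisons and TNFα against DMSO share the 4 DMSO libraries, so the values are given side by side only. In the TMP195 comparison the replicate block gave 20 members higher and 3 lower, against 17.9% and 18.8% of all genes. It added Hif1a (log2 fold change 0.47 ± 0.16, adjusted p = 0.0335) and Pkm (log2 fold change 0.42 ± 0.11, adjusted p = 0.00770) as higher. Added as lower were Pfkm (log2 fold change -0.47 ± 0.16, adjusted p = 0.0344) and Pdk1 (log2 fold change -0.21 ± 0.08, adjusted p = 0.0432).

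The members of smallest p in these comparisons were the transporters, Pgk1, Egln3 and Adm. Slc2a1 stood at 2.66-fold of DMSO with TMP195+TNFα (log2 fold change 1.41 ± 0.15, adjusted p = 1.71e-06) and 2.86-fold with TPCA-1+TNFα (log2 fold change 1.51 ± 0.15, adjusted p = 9.29e-07). Slc16a3 was at 33.5, 33.1, 49.4 and 51.6 CPM with TMP195+TNFα (log2 fold change 1.72 ± 0.26, adjusted p = 7.99e-05) and differed likewise with TPCA-1+TNFα (log2 fold change 1.83 ± 0.26, adjusted p = 5.07e-05). Egln3 was at 24.6, 19.2, 24.8 and 24.5 CPM with TMP195+TNFα (log2 fold change 2.47 ± 0.24, adjusted p = 8.66e-07) and 19.3, 15.4, 21.5 and 11.1 CPM with TPCA-1+TNFα (log2 fold change 2.01 ± 0.24, adjusted p = 9.24e-06). All of these libraries lay above the DMSO libraries. Adm was at 8.57, 11.7, 8.57 and 10.96 CPM (log2 fold change 2.38 ± 0.29, adjusted p = 8.83e-06) and 11.2, 20.3, 8.72 and 20.1 CPM (log2 fold change 2.96 ± 0.30, adjusted p = 1.16e-06) in the same order. Pgk1 was at 423, 345, 476 and 422 CPM (log2 fold change 1.01 ± 0.12, adjusted p = 4.79e-06) and 334, 334, 382 and 323 CPM (log2 fold change 0.73 ± 0.12, adjusted p = 0.000139), again apart from DMSO. By contrast, Pfkfb3 and Hk2 did not pass against DMSO in either inhibitor group in the edgeR fit. On the log2 scale Pfkfb3 differed by 0.15 and 0.11 (adjusted p = 0.428 and 0.533) and Hk2 by 0.26 and -0.10 (adjusted p = 0.165 and 0.582). With limma's voom, Pfkfb3 was higher with TMP195+TNFα (log2 fold change 0.29 ± 0.11, adjusted p = 0.0451), so this result depends on the method. Ndrg1 was lower than in DMSO in both (log2 fold change -1.08 ± 0.21, adjusted p = 0.000837 and log2 fold change -0.73 ± 0.21, adjusted p = 0.0137), and Pdk1 was lower with TPCA-1+TNFα (log2 fold change -0.50 ± 0.13, adjusted p = 0.00872). Vhl was higher with TPCA-1+TNFα (log2 fold change 0.42 ± 0.09, adjusted p = 0.00213) and did not pass with TMP195+TNFα (log2 fold change 0.18 ± 0.09, adjusted p = 0.167). Hif1a did not pass in either (log2 fold change 0.48 ± 0.22, adjusted p = 0.114 and log2 fold change 0.26 ± 0.22, adjusted p = 0.377), and without TPCA-1+TNFα replicate 2 it passed in the latter (log2 fold change 0.47 ± 0.17, adjusted p = 0.0499). Ankrd37 rose with TPCA-1+TNFα (log2 fold change 1.74 ± 0.29, adjusted p = 0.000234), also without that replicate (log2 fold change 1.41 ± 0.24, adjusted p = 0.000403). Calls of 3 members here rested on single libraries: Pfkl with TMP195+TNFα was lost without DMSO replicate 1 (adjusted p = 0.0540), Bnip3 with TPCA-1+TNFα without TPCA-1+TNFα replicate 3 (0.0520), and Ero1l with TPCA-1+TNFα without TPCA-1+TNFα replicate 1 or 3 or DMSO replicate 4 (up to 0.0674).

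Isoenzyme composition was followed per kilobase of transcript as a description, since it follows from the same counts. Pfkp made up 64.7% ± 3.68 of the phosphofructokinase sum in DMSO, 52.4% ± 3.81 in TNFα, 64.6% ± 1.65 in TMP195+TNFα and 58.5% ± 4.58 in TPCA-1+TNFα (mean ± SD, n = 4). Pfkl made up 25.2% ± 2.52, 41.4% ± 3.37, 30.3% ± 1.75 and 34.6% ± 5.12 in the same order. In the TMP195+TNFα libraries the shares of both subunits thus lay outside the range of the TNFα libraries, with Pfkp at 62.7% to 65.98% against 48.5% to 57.5% and Pfkl at 28.5% to 32.6% against 37.03% to 45.2%. Pfkm made up 10.1% ± 1.54 of the sum in DMSO and 6.19% ± 0.716 in TNFα. Among the hexokinases, Hk3 held the largest share in every group, at 60.6% ± 3.26 in DMSO and 52.2% ± 3.49 in TNFα. Hk2 held 13.1% ± 0.885 in DMSO, 16.1% ± 1.90 in TNFα, 11.8% ± 0.728 in TMP195+TNFα and 11.1% ± 2.30 in TPCA-1+TNFα. Egln3 held 52.5% ± 4.24 of the sum of Egln1 and Egln3 in TMP195+TNFα and 39.7% ± 5.58 in TPCA-1+TNFα.

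**Figure D5:**
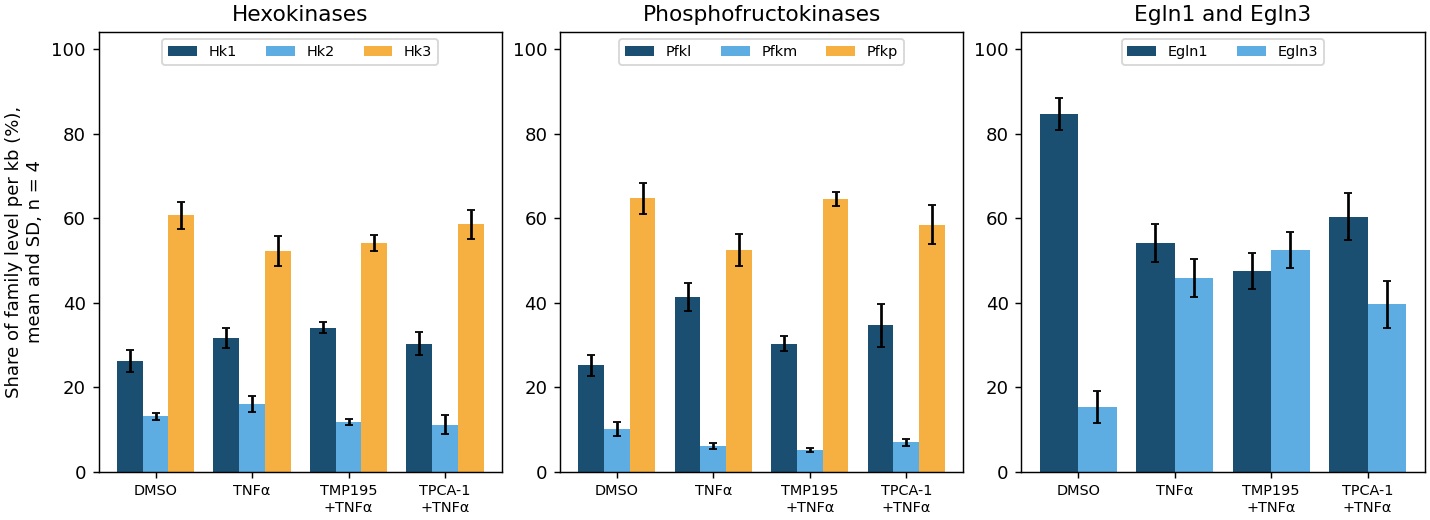
Share of each isoenzyme in its family's summed level per kilobase (y axis, percent) in the 4 groups (x axis), with bars for the mean and error bars for the SD of 4 libraries. Pfkl is at 25.2% in DMSO and 41.4% in TNFα, and Egln3 at 15.3% and 45.8%.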

How the data were processed

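RNA sequencing was read from 16 libraries of bone marrow-derived macrophages. The authors aligned reads with STAR 2.6.1d to builds named mm10 and GRCm38, per the submitters' processing notes, and deposited raw counts of uniquely mapped reads per gene for each library; the annotation release is not given in the sources used here. Of 54838 identifiers, 54809 matched GENCODE M21, which gave symbols, coordinates and transcript lengths on GRCm38. The reverse-strand counts were used (3.19% to 3.72% of stranded reads lay on the other strand), and rows for unmapped, multimapped, unassigned and ambiguous reads were left out of totals. Multimapped reads made up 6.69% to 12.0%.

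From the deposited counts, edgeR 4.0.16 in R 4.3.3 tested 12612 genes that passed filterByExpr, with TMM scaling, 1 model of all 16 libraries with a mean per group, 6 contrasts, 2-sided quasi-likelihood F tests and Benjamini-Hochberg adjustment over all genes tested (threshold 0.05). Levels are TMM-scaled CPM, and errors of log2 fold changes are SE from 4 libraries against 4. Log2 levels per library used a prior count of 2. A count of 3 reads corresponded to 0.0950 to 0.401 CPM, which covers counting error only. The tests were tried on simulated data first. Alternatives were DESeq2 1.42.0, limma 3.58.1 (voom with quality weights), RLE scaling, library totals only, no filter, unstranded counts, a replicate block, only the 2 groups compared, and leaving out each library.

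Replicate numbers come from the sample titles. Over all genes, same-numbered libraries of the DMSO, TNFα and TMP195+TNFα groups deviated together from their group means in all 12 pairs (correlation 0.27 to 0.68), so the number was taken to pair these libraries, and results of the block are given beside those it changes. For TPCA-1+TNFα not every pair did so, and its block results are in the closing section. The block was fitted to all 16 libraries, so the TPCA-1+TNFα libraries entered it by number in every comparison. The members and lists were chosen with earlier results of these data known, so no test was made over a list. Genes given in full are, for each role group, the called ones of smallest adjusted p (up to 3) with TNFα, the 4 of smallest adjusted p in each other comparison, and Hif1a, Vhl, Gapdh, Slc2a1 and Ldha, with up to 3 per further list and comparison.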

Additional observations from a re-analysis of the deposited data

Results flagged for a closer look

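In each of 128 sets of 4 libraries (32 members in 4 groups), the gap of the lowest or highest library to its nearest neighbour was compared with the range. In 4 of them it exceeded 0.829 of the range, Dixon's 95% limit, which chance alone exceeds in about 1 of 20. Egln1 was lowest in TMP195+TNFα replicate 4, at 25.3 CPM, where the other 3 libraries were at 29.1 to 29.8 CPM. Egln3 was lowest in TMP195+TNFα replicate 2, at 19.2 CPM against 24.5 to 24.8 CPM. Bnip3 was highest in DMSO replicate 2, at 30.7 CPM against 24.1 to 24.5 CPM, still below every TNFα library. Ankrd37 was highest in TPCA-1+TNFα replicate 2, at 10.7 CPM against 4.66 to 5.18 CPM, and this library was also the shallowest.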

How the results depend on the processing

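Over the 192 results of single members (32 members in 6 comparisons) and 3072 alternative values, 2932 stayed on the same side of the threshold. A call was lost in 49 and gained in 91, and in 0 did a called value change sign; in 110 values called in neither fit the sign differed. With TNFα against DMSO, 0 members were lower, and limma's voom gave 3, library totals only 1 and the replicate block 3. Counts that changed by up to 1.5-fold are not listed here. With TMP195+TNFα against TNFα, 1 higher became 2 with the replicate block, and 2 lower became 1 with library totals only. Voom added Vhl as lower in that comparison. Against DMSO, 1 lower with TMP195+TNFα became 2 with voom and 3 with the replicate block. With TPCA-1+TNFα against TNFα, 1 higher became 2 with DESeq2, 2 with voom, 0 without a filter and 0 with only the 2 groups compared. Between the inhibitor groups, 2 higher became 4 with DESeq2, 7 with voom and 4 with library totals only. There 1 lower became 3 with DESeq2 and 0 with library totals only, unstranded counts or only the 2 groups. The cause of these shifts was not tested.

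Leaving out 1 library at a time gave 18 to 22 higher and 0 lower with TNFα against DMSO, 0 to 1 higher and 0 to 2 lower with TMP195+TNFα against TNFα, and 1 to 4 higher and 2 to 4 lower with TPCA-1+TNFα against TNFα. It gave 2 to 5 higher and 0 to 3 lower between the inhibitor groups, 17 to 19 higher and 1 to 2 lower with TMP195+TNFα against DMSO, and 15 to 18 higher and 2 lower with TPCA-1+TNFα against DMSO.

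Of the 12 same-numbered pairs with TPCA-1+TNFα, correlations ran from -0.043 to 0.51, and 8 were over 0.1. The others were the 3 of replicate 2 and 1 of replicate 4, so the number was not taken to pair these libraries. TPCA-1+TNFα replicate 2 instead correlated with replicate 4 of DMSO (0.26), TNFα (0.29) and TMP195+TNFα (0.36), and the reason was not tested. The block model nevertheless included the TPCA-1+TNFα libraries under their numbers, because it was fitted to all 16 libraries together. With the replicate block, members were 3 higher and 6 lower against TNFα (15.8% and 14.6% of all genes), 8 higher and 4 lower for TMP195+TNFα against TPCA-1+TNFα (18.6% and 18.3%), and 20 higher and 2 lower against DMSO (20.8% and 20.3%). Against TNFα the block added Hif1a (log2 fold change -0.60 ± 0.16, adjusted p = 0.0113), Ndrg1 (log2 fold change -0.46 ± 0.14, adjusted p = 0.0248) and Pdk1 (log2 fold change -0.23 ± 0.08, adjusted p = 0.0402) as lower, and Gpi1 (log2 fold change 0.41 ± 0.14, adjusted p = 0.0333) and Pfkp (log2 fold change 0.39 ± 0.11, adjusted p = 0.0127) as higher. Over all genes, TMP195+TNFα against TNFα gave 750 calls, and 1209 with DESeq2, 1778 with voom and 1699 with the block; TPCA-1+TNFα against TNFα gave 2446, and 3835 with the block. Low members such as Adm and Ankrd37 rest on 153 and 149 reads over the 4 DMSO libraries, which limits their fold changes.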

Other observations

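Genes next to the 32 members were also set against DMSO in the 2 inhibitor groups. Over all genes tested, 13.6% were called higher and 13.9% lower with TMP195+TNFα. With TPCA-1+TNFα the shares were 14.8% and 15.5%, and the list counts below are to be read beside these shares. Of 9 pentose phosphate genes, 3 rose with TMP195+TNFα and 6 did not pass, while 4 rose and 1 fell with TPCA-1+TNFα. Pgd, which makes NADPH, was at 334 ± 51.2 CPM in DMSO, 812 ± 106 CPM with TMP195+TNFα (log2 fold change 1.28 ± 0.14, adjusted p = 1.97e-06) and 729 ± 119 CPM with TPCA-1+TNFα (log2 fold change 1.13 ± 0.14, adjusted p = 8.80e-06). Of 27 other HIF targets, 12 rose and 2 fell with TMP195+TNFα, and 15 rose and 3 fell with TPCA-1+TNFα. Hmox1 was at 4166 ± 512 CPM with TMP195+TNFα (log2 fold change 1.72 ± 0.19, adjusted p = 3.37e-06) and 4606 ± 1083 CPM with TPCA-1+TNFα (log2 fold change 1.86 ± 0.19, adjusted p = 1.73e-06). Vegfa rose with TMP195+TNFα (log2 fold change 1.05 ± 0.13, adjusted p = 9.48e-06), and the transferrin receptor Tfrc fell with TPCA-1+TNFα (log2 fold change -1.69 ± 0.20, adjusted p = 6.88e-06). Of 26 further glycolysis and pyruvate genes, 4 rose and 22 did not pass with TMP195+TNFα, and 5 rose and 2 fell with TPCA-1+TNFα, with Pcx higher in both (log2 fold change 2.91 ± 0.32, adjusted p = 3.24e-06 and log2 fold change 2.20 ± 0.33, adjusted p = 7.03e-05). Of 15 further genes of the HIF machinery, 1 rose and 3 fell, and 3 rose and 2 fell, in the same order. Cited2 was lower in both (log2 fold change -0.44 ± 0.10, adjusted p = 0.00260 and log2 fold change -0.93 ± 0.10, adjusted p = 2.30e-06). Adjusted p-values are from edgeR's quasi-likelihood test, and these comparisons share the 4 DMSO libraries.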
